A study of Homo sapiens with 24 samples.

Results

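Induction of NLRP4 for 6 h was examined within 1 engineered line of THP-1 cells, an established human monocytic leukaemia line, by setting the arrays of doxycycline-treated cells (DOX) against those of untreated cells of the same line. The samples were taken by their label, which gave 4 arrays of the NLRP4 line with DOX and 4 arrays of the NLRP4 line without DOX, so 8 of the 24 arrays of the series. The NLRP4 line carried a 3X FLAG-tagged NLRP4 coding sequence behind a tetracycline-inducible TRE promoter, delivered with the lentiviral vector pSLIK_Neo and selected as a stable line with G418. The remaining 16 arrays held a line with an inducible NOD1 coding sequence and a line with the vector alone, each with and without DOX, at 4 arrays a group. All lines were THP-1 cells selected in the same way, seeded at 50000 cells per well of a 96-well plate, and given DOX at 1 µg/ml for 6 h or none.

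Several features of the design limit what the comparison can separate. The labels state that wells followed an order set in advance without randomization, and the arrays of the NLRP4 line are numbered 33 to 36 with DOX and 29 to 32 without DOX, so DOX and place in that order cannot be told apart. They do not say that the wells of a group were separate cultures, and a p-value then reflects how much these wells varied, a spread that may be technical only. The labels do not say how many clones or transductions stand behind the line, which was infected so that most transduced cells held a single integration, and they give no dose other than 1 µg/ml and no time other than 6 h.

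NLRP4 belongs to the NOD-like receptors, cytosolic proteins with a nucleotide-binding domain and leucine-rich repeats that sense microbial products or danger and in several cases assemble inflammasomes. It has been described as a brake on type I interferon production, through degradation of the kinase TBK1 with the ubiquitin ligase DTX4, and as a partner of the autophagy protein Beclin 1. The family members best known in monocytes are NOD1, NOD2 and NLRP3, whereas several relatives of NLRP4 in its gene cluster are known mainly from oocytes and early embryos.

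Within this comparison 18417 genes with a single symbol were tested, and 3 of them (0.0163%) passed limma's test at a Benjamini-Hochberg adjusted p under 0.05. NLRP4 itself rose by far the most, HSD3BP4, a pseudogene related to steroid-hormone dehydrogenases, rose less than 2-fold, and METTL23, which encodes an arginine methyltransferase of histones, fell. Of all genes tested 2 rose (0.0109%) and 1 fell (0.00543%). At an unadjusted p under 0.05 there were 1482 genes (8.05%), of which 747 were higher (4.06%) and 735 lower (3.99%) with DOX. The same threshold took 622 genes (3.38%) for DOX in the vector line, where 0 genes passed the adjusted test. For DOX in the NOD1 line it took 1062 genes (5.77%), and 2 passed the adjusted test. The share in the NLRP4 line depended on the scale. With the deposited median of each array as a covariate it was 1070 genes (5.81%), and 2 genes were called.

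NLRP4 on chromosome 19 was measured by 1 probe set, and its probes cannot tell the introduced sequence and the cell's own transcript apart. Its log2 signals in the NLRP4 line with DOX were 12.22, 11.99, 11.90 and 11.60, against 7.81, 7.67, 8.61 and 8.27 in the NLRP4 line without DOX. The groups did not overlap, and the lowest DOX array lay almost 3 log2 units above the highest uninduced array. The means were 11.93 ± 0.257 with DOX and 8.09 ± 0.431 without DOX (SD, n = 4 each), a 14.3-fold difference (log2 3.84, SE 0.188, 95% interval 3.45 to 4.23, limma adjusted p = 3.73e-12). A two-sided exact permutation test of the 4 against 4 arrays gave p = 0.0286, the smallest value that 70 splits allow. In the other lines NLRP4 averaged 7.05 with DOX and 6.92 without DOX (vector) and 7.03 both with and without DOX (NOD1). The uninduced NLRP4 line already stood above them. Its lowest array, at 7.67, exceeded the highest array of the vector and NOD1 lines, at 7.38. The 14.3-fold difference therefore sets a higher NLRP4 signal against a lower one, and the cause of the raised uninduced level was not tested. The increase in the NLRP4 line exceeded that in the vector line by 3.71 on the log2 scale (SE 0.266, limma adjusted p = 1.43e-08).

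The level of NLRP4 relative to other genes shows where the induced transcript came to lie. With DOX its signal stood at the 92.6th percentile of the 18417 genes, and without DOX at the 31.3rd percentile. Olfactory receptor genes, which monocytic cells are not known to use, give a view of the low end of the signal. Of the measured olfactory receptor genes 92.5% lay below NLRP4 in the NLRP4 line without DOX, on the scale of probe set signals, which is not a scale of transcript number. Background was not measured on these arrays, so a log2 difference that starts near the low end may be compressed.

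**Figure D1:**
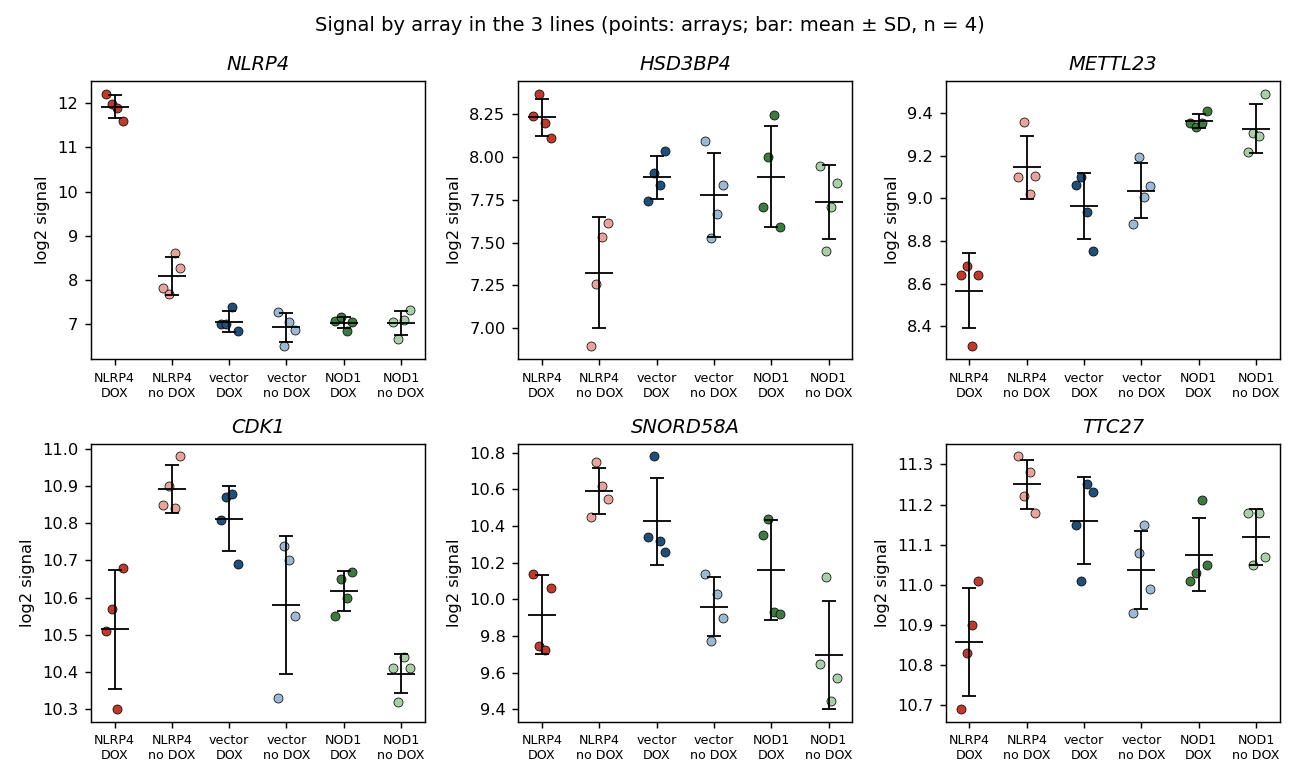
Log2 signal on each array for the 3 called genes and for CDK1, SNORD58A and TTC27, with the NLRP4, vector and NOD1 lines from left to right and DOX left of no DOX in each. Points are arrays and bars are mean ± SD of 4 arrays. NLRP4 stands at 11.60 to 12.22 only in the NLRP4 line with DOX, and the vertical axes differ between genes.

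HSD3BP4 on chromosome 1 is a transcribed pseudogene beside the steroid-hormone enzymes HSD3B1 and HSD3B2. Its log2 signals were 8.24, 8.37, 8.20 and 8.11 in the NLRP4 line with DOX, against 6.89, 7.26, 7.53 and 7.62 in the NLRP4 line without DOX. All DOX arrays lay above all uninduced arrays, and they lay closer together (SD 0.108 with DOX and 0.326 without DOX, n = 4 each). The rise was 1.87-fold (log2 0.91, SE 0.154, 95% interval 0.59 to 1.22, limma adjusted p = 0.0296). HSD3BP4 averaged 7.88 with DOX and 7.78 without DOX in the vector line, and 7.88 with DOX and 7.74 without DOX in the NOD1 line. The uninduced NLRP4 line therefore had the lowest of the 6 group means and the DOX-treated NLRP4 line the highest. The difference from the DOX effect in the vector line was 0.81 (SE 0.217) and did not pass the test (limma adjusted p = 0.854). The neighbours HSD3B1 and HSD3B2 stood at −0.04 and 0.19, and neither passed.

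METTL23 on chromosome 17 moved the other way. Its log2 signals were 8.64, 8.68, 8.30 and 8.64 in the NLRP4 line with DOX, against 9.10, 9.36, 9.02 and 9.10 in the NLRP4 line without DOX. The groups did not overlap. METTL23 fell 1.5-fold (log2 −0.58, SE 0.098, 95% interval −0.78 to −0.38, limma adjusted p = 0.0296). Its means were 8.96 with DOX and 9.04 without DOX in the vector line, and 9.36 with DOX and 9.33 without DOX in the NOD1 line, so the DOX-treated NLRP4 line held the lowest of the 6. JMJD6, a histone and protein hydroxylase gene whose span overlaps METTL23, had a log2 change of −0.13 (SE 0.104), not called. The change of METTL23 minus that in the vector line was −0.51 (SE 0.138, limma adjusted p = 0.854).

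The calls of HSD3BP4 and METTL23 rested on the array set and the scale. With the values as deposited HSD3BP4 stood at 1.20 (limma adjusted p = 0.0861) and METTL23 at −0.26 (limma adjusted p = 0.129). Without NLRP4_DOX replicate 1, 2 or 3, or without NLRP4_noDOX replicate 1 or 2, NLRP4 was the 1 gene called. When all 33297 probe sets were normalized and tested together both stood at an adjusted p of 0.0527.

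Of all genes tested, 947 (5.14%) had groups that did not overlap, 486 higher with DOX (2.64%) and 461 lower with DOX (2.50%). Among these the 12 higher and the 12 lower genes with the lowest p are described next, and 21 of these 24 did not pass the adjusted test. The 12 higher genes had log2 changes of 0.37 to 3.84 and the 12 lower genes of −0.71 to −0.38. The next genes in order of p were PPIL2 at 0.47 and IGBP1P1 at −0.89.

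After NLRP4 and HSD3BP4, the higher genes began with PAX6, a homeobox transcription factor of eye and brain development. PAX6 had 6.94, 7.24, 7.30 and 6.83 in the NLRP4 line with DOX, against 6.52, 6.66, 6.46 and 6.67 without DOX (log2 0.50, SE 0.104, limma adjusted p = 0.279). The groups were apart, but at means of 7.08 and 6.58 the gene lay at the 13.7th percentile with DOX and the 8.12th percentile without DOX. PAPPA-AS1, an antisense RNA of the pregnancy-associated protease gene PAPPA, had the largest difference after NLRP4 among the 12. It had 8.64, 7.87, 8.66 and 7.23 with DOX, against 6.87, 7.08, 7.17 and 7.17 without DOX (log2 1.03, SE 0.25, limma adjusted p = 0.322). Its DOX arrays spread over more than 1 log2 unit, and the lowest was close to the uninduced arrays. In the vector line without DOX it had 7.45, 7.88, 8.09 and 6.89. The highest of these was close to the mean of 8.10 in the NLRP4 line with DOX.

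The other higher genes at a high signal were few. RANBP9, a scaffold protein of an E3 ubiquitin ligase complex, had 12.44, 12.47, 12.42 and 12.29 with DOX, against 11.99, 12.14, 11.84 and 12.06 without DOX (log2 0.40, SE 0.093). PKM, the pyruvate kinase of glycolysis, had 11.90, 11.84, 11.89 and 11.44 with DOX, against 11.39, 11.39, 11.19 and 11.39 without DOX (log2 0.43, SE 0.109). RGS17, a regulator of G-protein signalling, stood at 0.45 (SE 0.108) and SIRT2, an NAD-dependent deacetylase of tubulin, at 0.43 (SE 0.105). In each of these 4 genes the DOX arrays lay above all uninduced arrays, with limma adjusted p between 0.322 and 0.337. RANBP9 was at −0.02 once arrays were centred on their medians. Over 18 alternative settings or array sets PKM ran from 0.065 to 0.54, RGS17 from 0.28 to 0.595 and SIRT2 from 0.31 to 0.63.

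The remaining higher genes were the Ras-related gene RAB40A at 0.58, the selectin-ligand sorting nexin SNX20 at 0.50, TMEM78 at 0.66 and the hair-cell protein gene KNCN at 0.37. TMEM78 was 0.51 with DOX in the NOD1 line and −0.09 in the vector line. For RAB40A, SNX20 and KNCN both other lines lay between −0.09 and 0.10.

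**Figure D2:**
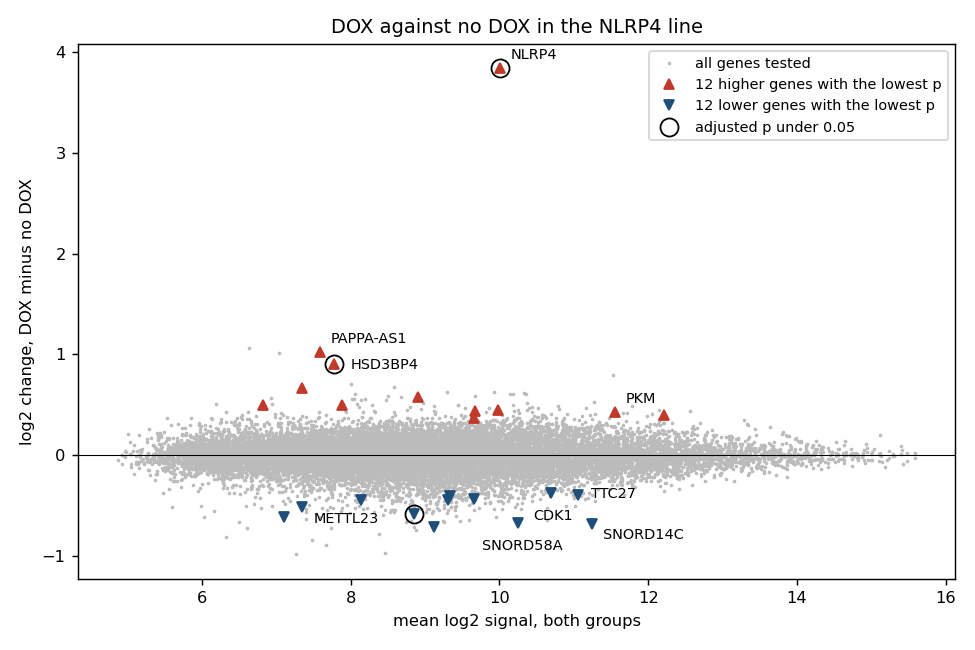
Log2 change (DOX minus no DOX) in the NLRP4 line against the mean log2 signal of both groups, for 18417 genes. Red and blue triangles mark the 12 higher and 12 lower genes with the lowest p among genes whose groups did not overlap, and circles mark the 3 called genes. NLRP4 at 3.84 stands alone, and 4 genes in all reach a log2 change of 1 in either direction.

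Among the lower genes TTC27, a tetratricopeptide repeat protein, came next after METTL23. It had 10.69, 10.83, 10.90 and 11.01 with DOX, against 11.32, 11.22, 11.28 and 11.18 without DOX (log2 −0.39, SE 0.079, limma adjusted p = 0.222). The gap between the groups was smaller than the range of the DOX arrays. CD36, the scavenger and fatty acid receptor of monocytes, had 9.18, 9.07, 8.97 and 9.32 with DOX, against 9.35, 9.64, 9.70 and 9.48 without DOX (log2 −0.41, SE 0.096, limma adjusted p = 0.322). Its highest DOX array nearly met its lowest uninduced array. PDE7B, a cAMP phosphodiesterase, had the lowest change of the 12, with 8.52, 8.67, 8.92 and 8.92 with DOX, against 9.07, 9.68, 9.42 and 9.72 without DOX (log2 −0.71, SE 0.169, limma adjusted p = 0.322).

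CDK1, the kinase that drives entry into mitosis, and SNORD58A, a C/D box small nucleolar RNA in an intron of the ribosomal protein gene RPL17, are of a different kind. CDK1 had 10.51, 10.57, 10.30 and 10.68 in the NLRP4 line with DOX, against 10.85, 10.90, 10.84 and 10.98 without DOX (log2 −0.38, SE 0.087, limma adjusted p = 0.322). In the vector and NOD1 lines its values with DOX were higher, by 0.23 and 0.22. Without DOX the mean of CDK1 was 10.89 in the NLRP4 line, 10.58 in the vector line and 10.39 in the NOD1 line. SNORD58A had 10.14, 9.75, 9.72 and 10.06 in the NLRP4 line with DOX, against 10.45, 10.75, 10.62 and 10.55 without DOX (log2 −0.67, SE 0.149, limma adjusted p = 0.319), and stood at 0.47 in the vector line and 0.46 in the NOD1 line. Without DOX the mean of SNORD58A was 10.59 in the NLRP4 line, 9.96 in the vector line and 9.70 in the NOD1 line. For both genes the uninduced NLRP4 line thus held the highest uninduced mean. Neither gene passed within any 1 line. The difference between lines, which adds opposite changes, did pass for both and is given further on.

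The other lower genes included SNORD14C, another small nucleolar RNA, at −0.69 (SE 0.164), and PTTG2, a copy of the securin gene, at −0.62 (SE 0.133). NAV3, a microtubule-associated neuron navigator, stood at −0.44 in the NLRP4 line, −0.29 in the vector line and −0.34 in the NOD1 line. For the difference from the mean of the other lines, 11 of the 12 had an unadjusted limma p under 0.05, and NAV3 did not. The 12 were picked by their change in the NLRP4 line, which is part of that difference. The choice therefore favoured low p-values in advance, and the count does not show that these changes belong to the NLRP4 line. Of the 12, 2 passed the adjusted test of the difference. RPS4Y2 at −0.44, RPL36AP40 at −0.51 and UBE2Q2P2 at −0.45 complete the set. These 3 are copies of ribosomal protein or ubiquitin-conjugating enzyme genes, whose probes may share signal with their relatives, and the same holds for PTTG2.

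**Figure D3:**
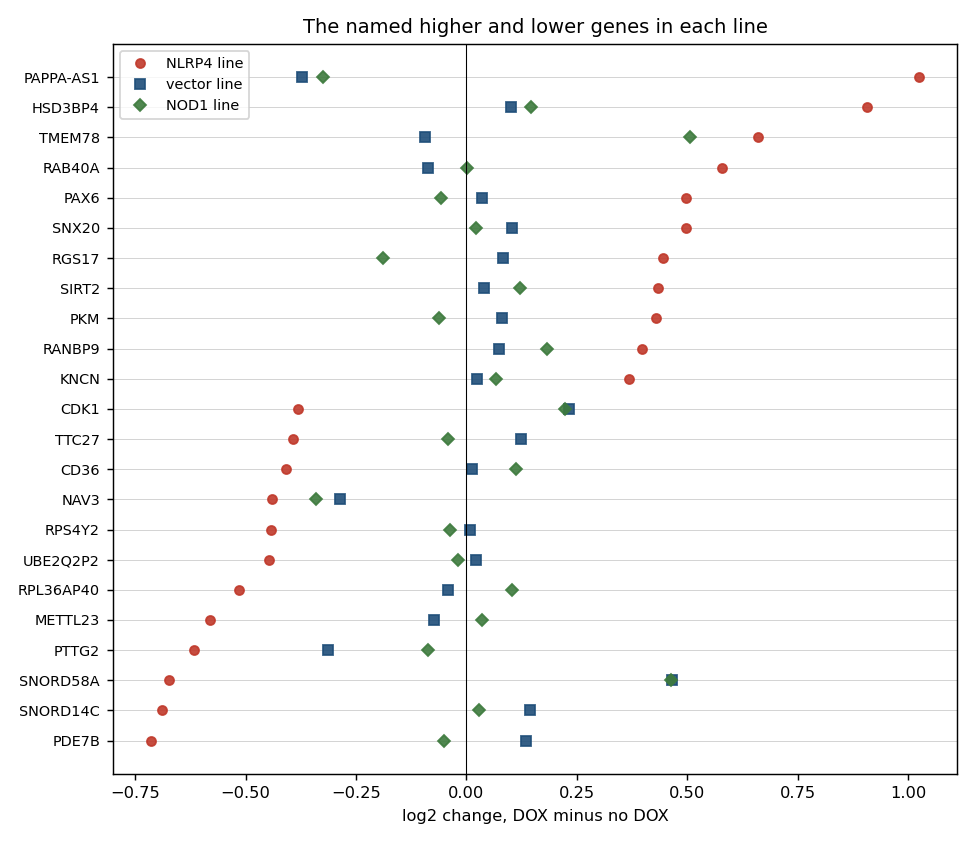
Log2 change with DOX in the NLRP4, vector and NOD1 lines for 11 of the 12 higher genes and the 12 lower genes, with NLRP4 left out for scale. Each row is a gene and each marker the difference between means of 4 arrays a group. CDK1 and SNORD58A lie below 0 in the NLRP4 line and above 0 in the other lines, and NAV3 lies below 0 in all 3.

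A separate test asked whether the DOX effect in the NLRP4 line differed from the mean DOX effect of the vector and NOD1 lines. It called 4 genes (0.0217%), with 1353 genes (7.35%) at an unadjusted p under 0.05. NLRP4 was higher by 3.77 (SE 0.230, limma adjusted p = 4.61e-10). NOD1 was lower by 1.81, which comes from its own induction of 4.02 in the NOD1 line, since it stood at 0.23 in the NLRP4 line. SNORD58A was lower by 1.14 (limma adjusted p = 0.0134) and CDK1 by 0.61 (limma adjusted p = 0.0359). The gene with the next lowest p, the lipoyltransferase gene LIPT1, stood at −0.62 and was not called (limma adjusted p = 0.121). Against the vector line alone NLRP4 was the 1 gene called (0.00543%), with 906 genes (4.92%) at an unadjusted p under 0.05. Without NLRP4_DOX replicate 2 or 3, or NLRP4_noDOX replicate 2 or 3, SNORD58A and CDK1 were not called and NLRP4 and NOD1 remained. CDK1 kept its call in 10 of 33 alternatives, with values of −0.86 to −0.53, and SNORD58A in 28 of 33, with values of −1.35 to −1.07.

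The precision of the comparison limits which changes of the normalized signal beyond NLRP4 could have been seen among these wells. The median SE of a log2 change was 0.111 and the median half-width of a 95% interval 0.229. For 18290 genes (99.3%) the 95% interval lay within a 2-fold change in either direction, and for 16956 genes (92.1%) within 1.5-fold. Only 4 genes had a measured log2 change of at least 1 in either direction. They were NLRP4, the Cajal body RNA SCARNA1 at 1.06 (SE 0.290), PAPPA-AS1 at 1.03 and the pseudogene ADCY10P1 at 1.02, and the last 3 did not pass the test. These intervals are per gene and are not adjusted for the number of genes. They do not cover compression of dim signals or a change shared by most genes of a signal level.

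The NOD-like receptor family was measured with 20 genes, of which NLRP4 was the 1 called. The other 19 had log2 changes of −0.18 (NLRP2) to 0.24 (NLRP14). NLRP3, the inflammasome sensor of monocytes, averaged 10.65 with DOX and 10.61 without DOX (log2 0.04, 95% interval −0.13 to 0.20). NOD1, the peptidoglycan sensor of the other induced line, averaged 8.52 with DOX and 8.29 without DOX (log2 0.23, SE 0.135, limma adjusted p = 0.686). NOD2, which senses muramyl dipeptide, stood at −0.03, and NAIP and NLRC4, which together sense flagellin, at 0.21 and 0.17. NLRP5, an oocyte factor, had 0.22 with an unadjusted p of 0.0377, which became 0.600 after adjustment.

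The chromosome 19 cluster around NLRP4 was read from the order of genes in a RefSeq table of assembly GRCh38.p14. NLRP11, whose span overlaps NLRP4, averaged 5.96 with DOX and 5.92 without DOX. NLRP13 stood at 0.12, NLRP8 at −0.02, NLRP9 at 0.06 and RFPL4A at 0.05, and with NLRP5 these make 6 neighbours, none of them called. The neighbours were dim, with means between 5.96 and 7.27 with DOX.

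Genes reported in the literature to act with NLRP4 were measured with 12 members, 0 of them called, with 1 at an unadjusted p under 0.05 (8.33% of the list, against 8.05% of all genes). TBK1, the kinase that activates IRF3, averaged 10.70 with DOX and 10.80 without DOX (log2 −0.10, 95% interval −0.40 to 0.21). DTX4, the ubiquitin ligase, stood at 0.04, and TRAIP, USP38 and DYRK2, which act on TBK1 turnover, stood at −0.10, 0.03 and 0.05. BECN1, which encodes Beclin 1, averaged 9.76 with DOX and 10.02 without DOX (log2 −0.26, unadjusted p = 0.0423, limma adjusted p = 0.614). TRAF6, an adaptor ligase of Toll-like receptor signalling, had the highest value of the list at 0.31, and CHUK, a kinase of NF-kB activation, stood at −0.22. The vesicle-tethering genes VPS11, VPS18 and VPS33A stood at 0.01, −0.12 and −0.07. The arrays measure transcripts, so protein turnover of these partners was not observed.

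**Figure D4:**
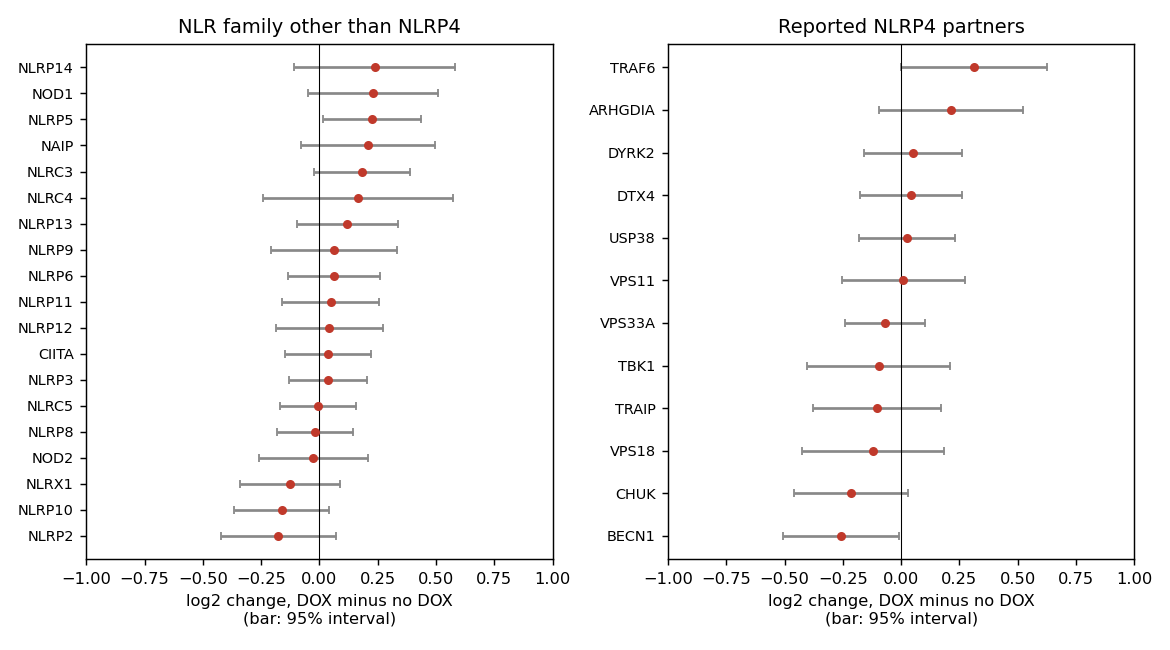
Log2 change (DOX minus no DOX) in the NLRP4 line for 19 NOD-like receptor genes other than NLRP4 and for 12 reported partners, with 95% intervals from the limma fit. The 19 points span −0.18 to 0.24 and the 12 points −0.26 to 0.31, and no gene passed the adjusted test.

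Pathways in which these partners work were followed as lists, and none of their members passed the adjusted test. The kinases, adaptors and receptors of type I interferon induction counted 23 genes, 3 higher and 2 lower at an unadjusted p under 0.05 (21.7%, against 8.05% of all genes), with a median of 0.01. The members with the lowest p pointed both ways. IRF7, a transcription factor that amplifies interferon production, had 0.21 and IRF3 had 0.17, whereas RIGI, the RNA sensor, had −0.35 and AZI2, an adaptor of TBK1, −0.26. Of 50 interferon-stimulated genes 2 were higher and 3 lower at that threshold (10%, against 8.05% of all genes). The list had a median of −0.01 and a range of −0.33 to 0.28. Among them BST2 (tetherin) had 0.28 and IFITM2 0.19, and IFI6 had −0.33 and HERC5 −0.30.

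The autophagy list of 36 genes had a median of 0.01. At an unadjusted p under 0.05, 0 were higher and 2 lower (5.56%, against 8.05% of all genes), BECN1 and the receptor OPTN at −0.25. ATG4A, a protease that processes ATG8 proteins, stood at −0.41 in the NLRP4 line but with an SE of 0.260. The lysosome and V-ATPase list of 42 genes had 2 higher and 1 lower (7.14%, against 8.05% of all genes). Its member with the lowest p was CTSC, the protease that activates granule serine proteases, at −0.30 (SE 0.080, limma adjusted p = 0.345). The groups of CTSC did not overlap. The 2 higher genes were CTSZ at 0.31 and ATP6V0C at 0.20. The list median was 0.03, and 27 of the 42 were above 0 (64.3%, against 51.5% of all genes).

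Genes of NF-kB signalling, cytokines and the inflammasome were examined as the usual readout of a NOD-like receptor. Among 30 NF-kB subunits, feedback and survival genes 2 were lower and 0 higher at an unadjusted p under 0.05 (6.67%, against 8.05% of all genes). They were NFKB2 at −0.31 and OTUD7B at −0.35. The median of the NF-kB list was 0.04, and 18 of the 30 were above 0 (60%, against 51.5% of all genes). Among 39 cytokines and chemokines 4 were higher and 0 lower (10.3%, against 8.05% of all genes). The list median was 0.08, against 0.01 for all genes. The 4 were CSF3 at 0.31, IL1A at 0.37, IL23A at 0.22 and LTB at 0.19, and none passed the adjusted test. Among 25 inflammasome genes 0 were higher and 4 lower (16%, against 8.05% of all genes), with a median of −0.03. CASP1, the protease that matures interleukin-1-beta, averaged 9.73 with DOX and 10.12 without DOX (log2 −0.40, SE 0.160), and CARD16, its decoy relative, stood at −0.38. P2RX7, the ATP-gated channel, stood at −0.45 and DPP8 at −0.23. The lowest limma adjusted p of these 4 was 0.541.

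The immediate early genes, 38 in number, had a median of −0.03. At an unadjusted p under 0.05, 1 was higher (EGR4, 0.22) and 1 lower (DUSP6, −0.32), which is 5.26%, against 8.05% of all genes. JUN stood at −0.20. Among 21 Toll-like receptors and adaptors 2 were higher (9.52%, against 8.05% of all genes), IRAK2 at 0.21 and TIRAP at 0.26. The list median was nevertheless −0.08, and 13 of the 21 were below 0 (48.5% of all genes were). TLR4, the lipopolysaccharide receptor, stood at −0.32 with an unadjusted p of 0.0514.

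Glycolysis and mitochondrial ribosome genes, which serve energy metabolism, each held more members on 1 side of 0 than on the other. Of 30 glycolysis and hypoxia genes 23 were above 0 (76.7%, against 51.5% of all genes), with a median of 0.10. At an unadjusted p under 0.05, 3 were higher (10%, against 8.05% of all genes). Besides PKM these were GAPDH, at 13.49 with DOX and 13.20 without DOX (log2 0.29, SE 0.086, limma adjusted p = 0.405), and the neuronal enolase ENO2 at 0.29. In the other lines the list median was 0.03 (vector) and 0.00 (NOD1). The sign of this list depended on the scale: after centring of the arrays the list stood at a median of −0.10, against −0.06 for all genes. With the array median as a covariate it stayed above 0, at 0.10.

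Of 73 mitochondrial ribosomal protein genes 52 were below 0 (48.5% of all genes were), with a median of −0.08. At an unadjusted p under 0.05, 10 were lower and 1 higher (15.1%, against 8.05% of all genes), and 7 were lower without overlap, against 2.50% of all genes. MRPS18C had the lowest p, averaging 10.00 with DOX and 10.48 without DOX (log2 −0.49, SE 0.135, limma adjusted p = 0.345). MRPL15, MRPL20 and MRPL42 stood at −0.29, −0.28 and −0.22. The list median was −0.02 in the vector line and 0.03 in the NOD1 line. With the array median as a covariate the list median in the NLRP4 line came to −0.01. After centring of the arrays it was −0.358, against −0.06 for all genes.

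Nuclear-encoded subunits of the respiratory chain, 69 in number, had 5 lower and 1 higher at that threshold (8.7%, against 8.05% of all genes). They were led by NDUFB6 of complex I at −0.28 and UQCR11 of complex III at −0.39, with a list median of −0.02. Proteasome subunits, 36 in number, had 4 lower and 0 higher (11.1%, against 8.05% of all genes), with PSMC1 at −0.14. Cytosolic ribosomal protein genes, 67 in number, had 6 lower and 3 higher (13.4%, against 8.05% of all genes) and a median of −0.01. The copies RPL22L1 and RPS27L stood at −0.66 and −0.27. The median signals of these 3 lists with DOX ran from 12 to 14.1, in the bright range where the centred values differed most from the normalized ones.

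The cholesterol synthesis list of 23 genes had 18 above 0 and a median of 0.115, and 2 were higher at an unadjusted p under 0.05 (8.70%, against 8.05% of all genes). After centring of the arrays this median also lay below 0, at −0.095, against −0.06 for all genes. It was 0.112 with the array median as a covariate. The 2 genes were NSDHL, at 11.19 with DOX and 10.94 without DOX (log2 0.26), and SREBF2, the transcription factor of the pathway, at 0.28. NSDHL is also a member of the family of HSD3BP4. Among 27 NRF2 targets and metallothioneins 1 was higher and 5 lower at that threshold (22.2%, against 8.05% of all genes). The list median was −0.08, and it was −0.0068 with the array median as a covariate. After centring of the arrays it was −0.205, against −0.06 for all genes. The list held AKR1C1, an aldo-keto reductase with close copies, at −0.59 (SE 0.161), the glutathione synthesis gene GCLC at −0.48 and MT2A at 0.28. Among 42 amino acid and integrated stress response genes SHMT2 stood at 0.35 and SLC7A11, the cystine transporter, at −0.46. The unfolded protein response list of 28 genes had HERPUD1 at −0.36 and the sensor ERN1 at −0.19, and heat shock genes had HSF1 at 0.18 and DNAJA1 at −0.21.

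Cell cycle lists held few genes at a low p besides CDK1. Among 47 mitotic genes 3 were lower and 0 higher at an unadjusted p under 0.05 (6.38%, against 8.05% of all genes), CDK1, the kinesin KIF18A at −0.37 and the chromosomal passenger INCENP at −0.19, with a list median of −0.04. Among 44 replication genes 3 were lower and 0 higher (6.82%, against 8.05% of all genes). They were GINS3, SLBP and PRIM2, between −0.33 and −0.17, with a list median of −0.02. Among 31 p53 targets and apoptosis regulators BAD stood at 0.31, and GADD45A, PMAIP1 and BCL2L11 at −0.39, −0.32 and −0.24.

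Small nucleolar and Cajal body RNAs were measured with 192 genes, 5 higher and 6 lower at an unadjusted p under 0.05 (5.73%, against 8.05% of all genes). Of the 192, 147 had a 95% interval within 2-fold. Short RNAs were thus measured less precisely than genes in general. SNORD58A lies within RPL17, which averaged 12.22 with DOX and 12.37 without DOX (log2 −0.15, SE 0.069, unadjusted p = 0.0396, limma adjusted p = 0.601). The host gene groups did not overlap either.

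Families that monocytes are not known to use served as a view mainly of the low and middle range of the signal. Some keratin-associated members were brighter, with KRTAP10-2 at the 78th percentile without DOX and the 82.5th with DOX. Of 361 olfactory receptor genes 14 were higher and 6 lower at an unadjusted p under 0.05 (5.54%, against 8.05% of all genes). OR14I1 stood at 0.51 and OR9I1 at −0.30. Of 68 keratin-associated protein genes 10 were higher and 0 lower (14.7%, against 8.05% of all genes), and the list median was 0.09. Of the 68, 8 were higher without overlap, against 2.64% of all genes. The family is known as a structural component of hair. KRTAP10-2 averaged 10.66 with DOX and 10.27 without DOX (log2 0.39) and KRTAP19-1 averaged 6.82 with DOX and 6.46 without DOX (log2 0.36). With the array median as a covariate the list median was 0.00. After centring of the arrays it was 0.05, against −0.06 for all genes. In this family 73.5% of members were above 0, against 76.7% in the glycolysis list and 51.5% of all genes, and the part of array scaling in either share was not tested.

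Cell identity was checked against fixed markers. Of 23 monocyte markers 10 lay above the 75th percentile in the NLRP4 line without DOX, led by CTSG, a granule protease, at 14.92 with DOX and 14.87 without DOX. Of the same 23, 6 lay below the median gene, among them CD14 and MPO at the 23.7th and 28.1st percentiles. The mean level over the monocyte list ran from 10.21 to 10.29 on the DOX arrays and from 10.16 to 10.25 on the uninduced arrays. Of 15 T and NK cell markers 13, of 9 B cell markers 8 and of 9 erythroid and megakaryocyte markers 7 lay below the median gene, as did 5 of 9 epithelial and kidney-line markers. CD3G and MS4A1 were at the 6.49th and 8.72nd percentiles, whereas NCAM1 and NKG7, of the T and NK cell list, were at the 77.1st and 74.2nd. None of these markers was called, and in bulk RNA fewer cells of a type and less RNA per cell cannot be told apart.

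NLRP4 kept its call under each scaling, whereas the median of all genes and the count of calls moved with the scale. The deposited array medians were 8.75, 8.75, 8.85 and 8.81 in the NLRP4 line with DOX, against 8.32, 8.53, 8.51 and 8.51 in the NLRP4 line without DOX. The groups of medians did not overlap, and NLRP4_noDOX replicate 1 was the dimmest. In the values as deposited the median log2 change of all genes was 0.26, 35.5% of genes had an unadjusted p under 0.05, 96.9% of those were higher with DOX, and 1 gene, NLRP4, was called. With each array centred on its median 18.7% of genes had an unadjusted p under 0.05, 7.48% of those were higher, and 6 genes were called. After quantile normalization the split was 50.4% higher, and the median change was 0.01.

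A single constant per array did not describe the offset. Genes were split into 10 parts by mean signal, and in the deposited values the median change was 0.27 in the dimmest part, 0.34 in the fourth and −0.11 in the brightest. After centring it ran from 0.02 in the fourth part to −0.42 in the brightest. Quantile normalization brought all 10 medians to between −0.01 and 0.02, which sets the typical gene to no change at each level. A change shared by most genes at 1 signal level therefore cannot be seen in the normalized values. The cause of the offset was not tested.

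**Figure D5:**
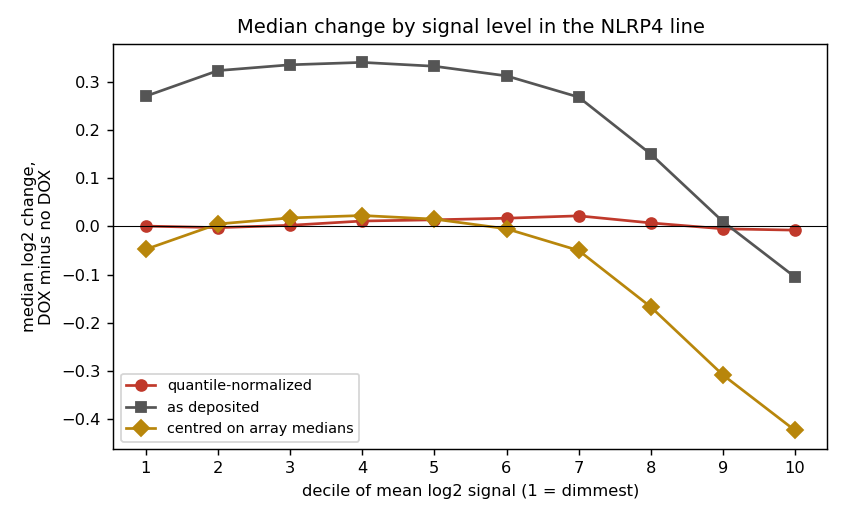
Median log2 change (DOX minus no DOX) in the NLRP4 line for 10 equal parts of the genes ranked by mean log2 signal, under 3 scalings. The deposited values lie between 0.27 and 0.34 in the 7 dimmest parts and drop to −0.11 in the brightest, centred values reach −0.42, and quantile-normalized values stay between −0.01 and 0.02.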

How the data were processed

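The authors deposited log2 signals for each probe set on every array, from Affymetrix Human Gene ST arrays. RMA and the oligo package were used, per the submitters' processing notes. Their versions, step order and the genome build were not given in the sources used here. Precision is limited by the number of arrays, 4 a group. By the platform annotation 19460 of 33297 probe sets carried 1 gene symbol, 1754 several, and 12083 have no name here. Entrez IDs matched 19429 of the first to current RefSeq names (GRCh38.p14). The probe set with the highest mean stood for its gene, leaving 18417 genes.

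The gene table was quantile-normalized between arrays, without a filter on dim genes. Fits used limma 3.58.1 in R 4.3.3, with 6 group means over 24 arrays and default empirical Bayes moderation (18 residual degrees of freedom). A gene was called, and is said to have risen or fallen, where the p-value adjusted by Benjamini-Hochberg over all genes was under 0.05, and all adjusted p-values are limma's. The contrasts were DOX against no DOX in the NLRP4 line, and that effect minus the effect in the vector line or minus the mean effect of the vector and NOD1 lines. The NLRP4 level also had an exact permutation test. Gene lists are described by counts and medians without a test. The fits were tested on simulated data.

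The rules for naming took NLRP4, NOD1 and every called gene. They took the 12 higher and 12 lower genes with the lowest p among those whose groups did not overlap. They also took the 5 lowest p of each difference between lines and up to 4 members of lowest p per list. All NOD-like receptors, reported partners and the neighbours of NLRP4 completed the choice. Not every gene or list so chosen is described, and the zinc finger and macrophage maturation lists are not. The members, lists and rules were chosen with earlier results of these data known. The neighbours of other genes, the genes with a log2 change of at least 1, CD14, CD3G, MS4A1, MPO, CTSG and the next genes in order of p were chosen after their values were seen. Probe sets that have several symbols or no symbol are given in the closing section. The alternatives were the values as deposited, arrays centred on their medians, only the arrays compared, array weights, trended and robust moderation, the array median as a covariate, genes above the 25th percentile of signal, the mean of a gene's probe sets, each array left out, and, added after seeing the data, leaving out the 4 arrays with the lowest deposited medians and testing all probe sets together.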

Additional observations from a re-analysis of the deposited data

Results flagged for a closer look

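In the groups of 4 arrays, an array far from the other 3 was found in 14 of 256 checks (5.47%), and chance flags about 1 in 20 groups. The gap to the nearest array as a share of the group's range is given as the ratio. In the NLRP4 line with DOX the ratio was 0.886 for METTL23, where replicate 3 lay low at 8.30 against 8.64 to 8.68, and without that array METTL23 stood at −0.49 (limma adjusted p = 0.170). It was 0.867 for PKM (replicate 4 low), 0.860 for CASP1 (replicate 4 high), 0.868 for GADD45A (replicate 2 low) and 0.923 for AKR1C1 (replicate 2 low). In the NLRP4 line without DOX it was 0.905 for the deposited array median, with replicate 1 at 8.32 against 8.51 to 8.53 on the others. It was 0.895 for BCL2L11 and 0.963 for IRAK2, both low on replicate 1. It was 0.857 for NLRP11 (replicate 2 low), 0.894 for VPS33A (replicate 2 high), 0.975 for PKM and 0.876 for RPL17 (replicate 3 low in both), 0.922 for TMEM78 (replicate 3 high) and 0.888 for UBE2Q2P2 (replicate 4 low).

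The DOX effect differed between lines, by limma's test of the difference, for NLRP4 against the vector line (3.71) and against both other lines (3.77). It differed against both other lines for NOD1 (−1.81), SNORD58A (−1.14) and CDK1 (−0.61).

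Among 13837 probe sets with several symbols or none, 3 passed the adjusted test (0.0217%) when all 33297 were fitted together, and with NLRP4 they made 4 called in all. Probe set 7893432 had 7.94, 9.01, 8.18 and 8.60 in the NLRP4 line with DOX, against 6.91, 6.66, 6.45 and 6.80 in the NLRP4 line without DOX. The groups did not overlap (log2 1.73, SE 0.167, limma adjusted p = 2.23e-05), and it stood at −0.20 in the vector line and −0.08 in the NOD1 line. The difference from both other lines was 1.87 (limma adjusted p = 0.000124). Probe set 8091676 averaged 8.53 with DOX and 7.84 without DOX (log2 0.69, limma adjusted p = 0.0181). Probe set 8010560 averaged 6.63 with DOX and 7.42 without DOX (log2 −0.79, limma adjusted p = 0.0181). No gene can be given for these 3 probe sets from the annotation used here.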

How the results depend on the processing

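NLRP4 kept its call in all 18 alternatives, at 3.61 to 4.01. The count of genes called for DOX in the NLRP4 line (3) was 1 in the values as deposited, with only the arrays compared, without the 4 arrays with the lowest deposited medians and with all probe sets tested together, and 6 with centred arrays. With 1 array left out it ranged from 1 to 8. It was 8 without NLRP4_DOX replicate 4, where PAX6, PAPPA-AS1 and TTC27 were called. HSD3BP4 was called in 8 of 18 alternatives (0.62 to 1.20) and METTL23 in 7 of 18 (−0.62 to −0.26). Against the vector line the count (1) was 2 with centred arrays and with array weights, SNORD58A being the added gene, and 1 in each fit without an array. Against both other lines the count (4) was 2 in the values as deposited and ranged from 2 to 5 with 1 array left out. LIPT1 turned to 0.0325 in the values as deposited (−0.30 in the main setting), and RANBP9 to −0.015 with centred arrays. Of 27 genes followed, 25 kept their sign. Medians of 34 of 35 lists moved by more than the spread between arrays in at least 1 alternative. In the values as deposited 1 gene was higher and 0 were lower among those called, and after centring 2 were higher and 4 lower. The causes were not tested.

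No paired analysis was possible because the array numbers in the labels are not shared between the groups. Signals near the low end have no measured background, which limits folds there.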
